A study of Mus musculus with 48 samples.

Results

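Invariant natural killer T (iNKT) cells are thymus-derived T lymphocytes whose nearly invariant T cell receptor sees lipids on CD1d, and they fall into effector types that resemble those of helper T cells. The RNA of thymic iNKT17 cells was compared here with that of thymic iNKT2 cells. The members are the 4 RNA libraries whose labels name these sublineages, 2 of iNKT17 and 2 of iNKT2 cells, of 48 samples in the series. A further 2 libraries, of iNKT1 cells, entered the fit for the spread between libraries and give one more level to read each gene against. All 3 groups were cells from thymi of FVB/N mice, purified fresh by flow sorting, and the labels name no treatment, transgene or deletion for them. RNA came from pelleted cells and was read as 75 bp pairs after a stranded mRNA preparation. Ages of the animals, the markers of the sort and whether replicate libraries came from separate animals are not given in the sources used here. P-values therefore cover only how far these libraries vary, possibly for technical reasons, and a gene used as a sort marker would differ through the sort itself.

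As background, iNKT17 cells respond to IL-1β and IL-23 and release IL-17. iNKT2 cells hold high levels of the transcription factor PLZF (Zbtb16) and release IL-4 and IL-13 at steady state. iNKT1 cells use T-bet (Tbx21), make IFN-γ and carry many receptors of natural killer (NK) cells.

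The libraries held 30847526 and 26811373 counts for iNKT17 cells, 28942084 and 27087674 for iNKT2 cells and 31025394 and 33688697 for iNKT1 cells. Depth was therefore similar, but replicate agreement was not. Levels are given as CPM, counts scaled to a common library size after TMM normalisation. Of genes with at least 10 CPM in 1 library of a group, 21.5% had under 1 CPM in the other iNKT17 library, against 8.79% for iNKT2 and 10.7% for iNKT1 libraries. Spearman's coefficient across the 12372 genes tested was 0.769 between the iNKT17 libraries, 0.860 between the iNKT2 libraries and 0.863 between the iNKT1 libraries. In bulk RNA, fewer cells of a kind and less RNA per cell cannot be told apart.

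Of the 12372 genes tested, 88 (0.711%) were called at an adjusted p under 0.05 by edgeR's quasi-likelihood test, which is meant by a call wherever no other tool is named. Higher in iNKT17 cells were 54 genes (0.436%), among them receptors and signalling genes of the type 17 program, and 34 genes (0.275%) were lower, among them Cd4, chemokine receptors and genes that iNKT1 cells expressed most. An unadjusted p under 0.05 was reached by 973 genes, and the common biological coefficient of variation was 1.295. The number called changed with the libraries and the tool. Leaving out 1 library raised it to 831 (iNKT17 library 1), 263 (iNKT17 library 2), 157 or 164 (iNKT2 library 1 or 2) and 149 or 160 (iNKT1 library 1 or 2), and DESeq2 called 1437. With the iNKT1 libraries left out of the fit altogether, 43 genes were called, and 32 of the 54 higher calls but only 5 of the 34 lower calls were kept (Cd4, Fhl2, AW112010, Cdh1 and Pde3b). All 88 calls were also made by DESeq2. Its counts in the gene lists below are to be read beside its 641 higher and 796 lower calls among the 13589 genes that it tested. Lost calls named beside single genes below are mainly those on leaving out 1 library, and other settings also lost some of these calls.

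**Figure D1:**
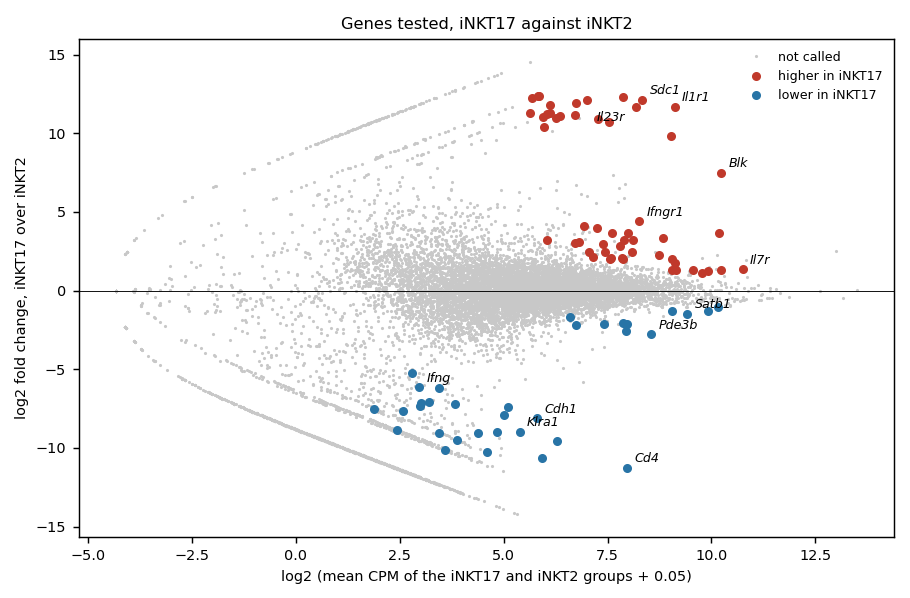
Each point is 1 of the 12372 genes tested, with the log2 mean CPM of the iNKT17 and iNKT2 groups (0.05 added) on the horizontal axis and the log2 fold change of iNKT17 over iNKT2 on the vertical axis. Red points are the 54 genes called higher in iNKT17 and blue points the 34 called lower; 22 red points lie at or above a fold change of 7 and 23 blue points at or below -5, which sets them apart from the remaining calls.

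The calls fell into genes that were read almost only in one sublineage and genes that differed in degree. Of the 54 higher genes, 22 had a log2 fold change of 7 or more, and 20 of these averaged under 1 CPM in iNKT2 cells. Their mean level in iNKT17 cells ran from 100 to 2396 CPM, and 18 of the 22 were also under 1 CPM in iNKT1 cells. The other 32 higher genes had changes from 1.13 to 4.39 and were read in all iNKT2 libraries at group means of 13.1 to 977.6 CPM. Among the 34 lower genes, 23 had changes of -5.26 to -11.27 and all 23 averaged under 1 CPM in iNKT17 cells, while the other 11 lay between -2.77 and -1.02.

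The receptors by which type 17 cells sense inflammatory cytokines were among the genes with the smallest p-values. Il1r1, the signalling receptor for IL-1, had 1077 and 1148 CPM in the iNKT17 libraries, against 0.372 and 0.290 CPM in the iNKT2 libraries. Il23r, the specific chain of the IL-23 receptor, had 633 and 538 CPM in iNKT17 cells and 0.203 and 0.145 CPM in iNKT2 cells. Every iNKT17 library stood far above every iNKT2 library for both receptors, and the iNKT1 libraries sat at the iNKT2 level, at 0.393 and 0.210 CPM for Il1r1 and 0.164 and 0.0599 CPM for Il23r. The log2 fold changes were 11.69 ± 0.46 (SE) for Il1r1 (adjusted p = 6.01e-06) and 11.68 ± 0.59 for Il23r (adjusted p = 2.25e-05). Of 13 tested genes in the list of type 17 cytokine receptors, 4 were higher and none lower, beside 0.436% higher and 0.275% lower of all genes tested. The list's median log2 fold change was 1.13, beside -0.09 over all genes tested. Like the other lists, it was chosen with earlier results of these data known, so its direction is no independent evidence.

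The other members called in that list were smaller steps on receptors read in all 3 groups. Il7r, the IL-7 receptor chain that sustains T cells, had 2405 and 2554 CPM in iNKT17 cells, against 1131 and 824 CPM in iNKT2 cells, for a difference of 1.34 ± 0.20 on the log2 scale (adjusted p = 0.0158). Il18r1, the ligand-binding chain for IL-18, had 1349 and 1371 CPM in iNKT17 cells and 676 and 470.3 CPM in iNKT2 cells (1.25 ± 0.23, adjusted p = 0.0448), and lost its call without iNKT2 library 2 (adjusted p = 0.112). Neither gene's groups overlapped, which was so for every called gene. Il18rap, the second IL-18 receptor chain, had 288 and 317 CPM in iNKT17 cells and 109 and 51.9 CPM in iNKT2 cells but did not pass (1.91 ± 0.36, adjusted p = 0.0561). Il17re, a receptor for IL-17C, stood at 190.2 and 257 CPM in iNKT17 cells and at 0.0677 and 0.145 CPM in iNKT2 cells, and did not pass either (10.99 ± 2.62, adjusted p = 0.277). DESeq2 called Il17re (adjusted p = 0.000109) and Il18rap (adjusted p = 2.71e-06). Il6ra, the IL-6 receptor, ran the other way, with 48.6 and 43.2 CPM in iNKT17 cells and 233 and 336 CPM in iNKT2 cells (-2.63 ± 0.53, adjusted p = 0.0706). DESeq2 called Il6ra too (adjusted p = 5.10e-09), as did 7 of the 12 alternatives in all, DESeq2 included. Over the 13 receptors DESeq2 called 6 higher and 2 lower, beside 641 higher and 796 lower of all 13589 genes that it tested.

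A start site of Il1r1 and that of Il23r lay in regions of open chromatin that differed between the sublineages in ATAC-seq, which reads DNA cut loose from accessible chromatin by a transposase. The region at the Il1r1 start held 13.5 and 17.5 CPM in iNKT17 cells, against 0.870 and 1.18 CPM in iNKT2 cells (log2 fold change 3.93 ± 0.48, adjusted p = 0.00288). At the Il23r start it held 20.0 and 32.1 CPM in iNKT17 cells and 1.79 and 0.788 CPM in iNKT2 cells (4.29 ± 0.44, adjusted p = 0.00168). Of the 36 higher genes with a region at their start, 11 (30.6%) had it called higher in iNKT17 cells, against 0.931% of the 8059 genes tested in RNA with such a region, and with the replicate number as a block the shares were 61.1% and 11.7%. The promoter windows of both genes, 250 bases before to 50 bases after the start as RefSeq gives it on GRCm38.p6, are printed 5′ to 3′ because these receptors are among the genes with the largest RNA difference. They lie at chr1:40224830-40225129 on the plus strand and chr6:67491806-67492105 on the minus strand. The Il1r1 window lies inside the gene's RefSeq span, which begins at chr1:40222480. Capitals mark the letters AGGTCA, a core that nuclear receptors recognise, on either strand.
Il1r1: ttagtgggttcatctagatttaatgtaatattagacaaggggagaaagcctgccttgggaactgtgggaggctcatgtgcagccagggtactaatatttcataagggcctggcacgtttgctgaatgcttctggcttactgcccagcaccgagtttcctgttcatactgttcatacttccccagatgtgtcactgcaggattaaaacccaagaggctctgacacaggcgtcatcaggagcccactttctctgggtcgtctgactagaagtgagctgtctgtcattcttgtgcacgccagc
Il23r: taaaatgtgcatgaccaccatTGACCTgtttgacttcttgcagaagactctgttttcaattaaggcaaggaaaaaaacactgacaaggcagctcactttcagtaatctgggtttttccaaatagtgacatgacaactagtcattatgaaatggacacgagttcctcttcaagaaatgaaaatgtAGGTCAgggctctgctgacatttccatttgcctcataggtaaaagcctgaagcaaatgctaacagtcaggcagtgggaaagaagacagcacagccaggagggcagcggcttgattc
The Il23r window held AGGTCA 2 times, starting 229 and 66 bases before the start site, and the Il1r1 window held none of the motifs searched. AGGTCA was present in 16.3% of all 32851 promoter windows, in 9 of the 57 windows (15.8%) of higher genes and in 8 of the 46 windows (17.4%) of lower genes.

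Maf, a factor that drives type 17 and follicular programs, had 552 and 509.8 CPM in iNKT17 cells and 369 and 206 CPM in iNKT2 cells (0.88 ± 0.36, adjusted p = 0.572). Stat3, which carries IL-23 and IL-6 signals, had 361 and 284 CPM in iNKT17 cells and 84.3 and 170.4 CPM in iNKT2 cells (1.34 ± 0.41, adjusted p = 0.340). Neither passed. The libraries of the groups did not overlap for either gene, which 2 libraries a side can also give without a true difference. The share of such genes over all genes tested is not given here. DESeq2 called Stat3 (adjusted p = 0.00603) and not Maf (adjusted p = 0.0929).

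Factors usually named for the other sublineages were not called by edgeR between iNKT17 and iNKT2 cells, and of these DESeq2 called Tbx21. Zbtb16 had 544 and 589 CPM in iNKT17 cells, 739.9 and 522 CPM in iNKT2 cells and 96.0 and 46.7 CPM in iNKT1 cells, so that iNKT17 and iNKT2 libraries overlapped and iNKT1 libraries lay below them. Its log2 fold change was -0.15 ± 0.35, and it turned to 0.14 without iNKT2 library 1. Gata3, the type 2 master regulator, had 155 and 239 CPM in iNKT17 cells and 155 and 152 CPM in iNKT2 cells (0.37 ± 0.40, adjusted p = 0.914). Tcf7, which encodes TCF-1, gave 0.25 ± 0.22, and Lef1, its close relative, -1.11 ± 0.58; neither passed. Tbx21 had 0.0965 and 0.233 CPM in iNKT17 cells and 0.305 and 19.7 CPM in iNKT2 cells, against 307 and 305 CPM in iNKT1 cells (-5.92 ± 1.87, adjusted p = 0.461). Tbx21 was called by DESeq2 (adjusted p = 0.0142), without the low-count filter and without iNKT2 library 1. The iNKT2 libraries also differed in other genes that were highest in iNKT1 cells, and not in 1 direction. Gzma was higher in iNKT2 library 2 (6.19 against 0.338 CPM in library 1), whereas Klrd1, Klra1 and Klre1 were higher in iNKT2 library 1 (18.7, 94.0 and 11.5 CPM against 8.22, 73.2 and 0.109 CPM in library 2). The part of these differences in the results was not tested.

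Transcripts of the signature cytokines IL-17A, IL-4 and IL-13 stood below 50 CPM in iNKT17 and iNKT2 cells, whereas Ltb, which encodes lymphotoxin beta, had 467 and 568 CPM in iNKT17 cells and 275 and 409 CPM in iNKT2 cells (0.60 ± 0.28, adjusted p = 0.672). Il17a had 39.8 and 15.1 CPM in the iNKT17 libraries and 0.0338 and 0.0362 CPM, 1 count each, in the iNKT2 libraries. The difference did not pass (log2 fold change 9.45 ± 4.36, adjusted p = 0.669) but was called by DESeq2 (adjusted p = 0.000784). Il17f and Il22 had 0 counts in all 6 libraries and were not tested, and none of the 5 tested type 17 cytokines was called by edgeR, none had an unadjusted p under 0.05, and DESeq2 called Il17a alone. Il4 had 11.6 and 21.4 CPM in iNKT17 cells and 37.1 and 47.9 CPM in iNKT2 cells (-1.36 ± 2.08, adjusted p = 0.991). Il13 had no count in either iNKT17 library and 23.0 and 32.7 CPM in iNKT2 cells. Setting iNKT17 cells at a floor of 3 counts for the group, it was at least 525-fold lower there. Its adjusted p was 0.613 in edgeR. Of the 12 alternatives only DESeq2 called Il13 (adjusted p = 5.30e-12), at a fitted log2 fold change of -25.35. With no iNKT17 count the data set no bound to that fitted value.

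Of genes that usually mark iNKT17 cells, Il23r, Il1r1, Ccr6, Sdc1, Blk and Il17re were higher in both iNKT17 libraries than in any iNKT2 library, and all but Ccr6 and Il17re were called. Such a separation can arise with 2 libraries a side without a true difference, and its share over all genes tested is not given here. Surface and signalling genes of type 17 lymphocytes formed the list with the most calls. Of 22 tested members 6 were higher and none lower, beside 0.436% higher and 0.275% lower of all genes tested. The median log2 fold change of the list was 4.33, beside -0.09 over all genes tested. Its members had been picked partly with these data known, so the direction of the list is no independent evidence. Sdc1, the heparan sulphate proteoglycan syndecan-1, had 616 and 675 CPM in iNKT17 cells and 0.0677 and 0.217 CPM in iNKT2 cells (12.12 ± 0.61, adjusted p = 2.25e-05). Blk, a Src family kinase best known from B cells, had 3017 and 1775 CPM in iNKT17 cells, 9.27 and 17.4 CPM in iNKT2 cells and 0.916 and 0.419 CPM in iNKT1 cells (7.49 ± 0.56, adjusted p = 0.00144). Blk thus stepped down from iNKT17 through iNKT2 to iNKT1 cells without overlap, whereas Sdc1 was near background outside iNKT17 cells. Serpinb1a, an inhibitor of neutrophil serine proteases, had 249 and 264 CPM in iNKT17 cells and 0 and 0.109 CPM in iNKT2 cells. With only 3 counts on the iNKT2 side, the ratio of summed counts was 4873 (95% counting interval 1667 to 23633).

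The other called members of that list were read in iNKT2 cells too. Cxcr6, the receptor for CXCL16, had 937 and 771 CPM in iNKT17 cells, 211 and 213 CPM in iNKT2 cells and 683 and 627 CPM in iNKT1 cells (2.01 ± 0.23, adjusted p = 0.00340). Igf1r, the receptor for insulin-like growth factor 1, had 386 and 341 CPM in iNKT17 cells, 38.4 and 20.1 CPM in iNKT2 cells and 0.262 and 0.0299 CPM in iNKT1 cells (3.63 ± 0.65, adjusted p = 0.0422). Hence iNKT1 cells sided with iNKT17 cells for Cxcr6 and lay below both for Igf1r. The gene 5830411N06Rik, also in the list of gamma delta T cell markers, had 2345 and 1938 CPM in iNKT17 cells and 231 and 110.0 CPM in iNKT2 cells (3.65 ± 0.35, adjusted p = 0.00144). Ccr6, the receptor for CCL20 on type 17 cells, had 74.5 and 26.2 CPM in iNKT17 cells and 0.0338 and 0 CPM in iNKT2 cells, and did not pass (adjusted p = 0.417; 3.85e-06 in DESeq2). Kcnk1, a potassium channel gene, had 77.2 and 77.8 CPM in iNKT17 cells and 0.0677 and 0.0362 CPM in iNKT2 cells, with an adjusted p of 0.106. Pxdc1 had 369 and 423 CPM in iNKT17 cells and 0.169 and 4.64 CPM in iNKT2 cells, with an adjusted p of 0.189.

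**Figure D2:**
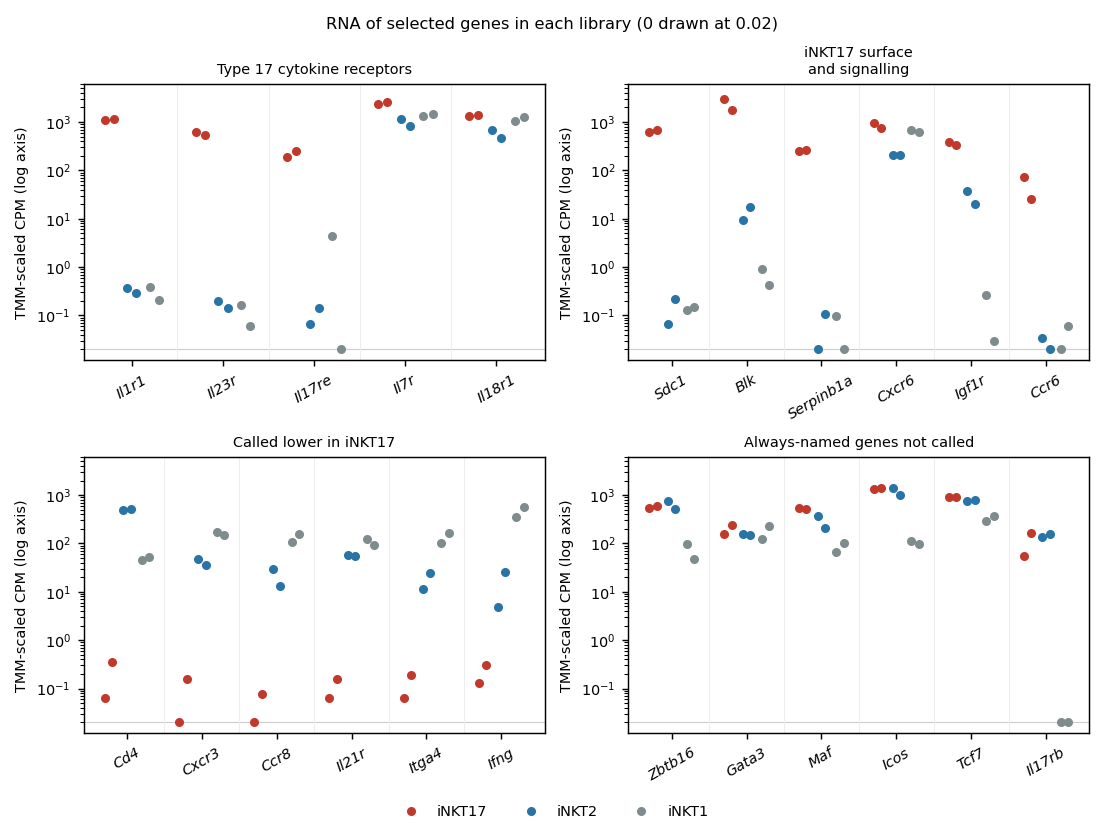
TMM-scaled CPM on a log axis for 23 genes in each library, iNKT17 (red), iNKT2 (blue) and iNKT1 (grey), 1 point per library and 0 drawn at 0.02. Il1r1, Il23r, Sdc1 and Serpinb1a lie above 200 CPM in both iNKT17 libraries and below 1 CPM in all other libraries, Cd4 is below 0.4 CPM in iNKT17 libraries alone, and Zbtb16 and Icos overlap between iNKT17 and iNKT2.

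Several strongly higher genes belong to no immune list. Rhobtb1, an adaptor of ubiquitin ligases, had 139.9 and 91.3 CPM in iNKT17 cells and 0.0338 and 0 CPM, 1 count in all, in iNKT2 cells (12.39 ± 1.77, adjusted p = 0.0149). Dkk3, a secreted relative of the Dickkopf Wnt inhibitors, had 90.0 and 139 CPM in iNKT17 cells and likewise 1 count in iNKT2 cells (12.38 ± 1.79, adjusted p = 0.0156). Mmp25, a membrane-anchored matrix metalloproteinase, had 353 and 382 CPM in iNKT17 cells and 0.203 and 0.217 CPM in iNKT2 cells (10.74 ± 0.71, adjusted p = 0.000133). Coro2b, of the actin-binding coronins, had 362 and 259 CPM in iNKT17 cells and 0.203 and 0.109 CPM in iNKT2 cells (10.91 ± 1.09, adjusted p = 0.00192). None of these 4 was above 0.2 CPM in an iNKT1 library. For Rhobtb1 the ratio of summed counts was 6735, with a 95% counting interval of 1208 to 266059. Further members of this set were Gfra4 (12.23), Fam83a (11.89), Colgalt2 (11.80), Tuba8 (11.32), Sh3pxd2b (11.27), Lrrc17 (11.14), Pltp (11.05), Mapk10 (10.99) and Lingo4 (10.39), given with their fitted log2 fold changes, which depend on the prior count of the fit where iNKT2 cells had 1 to 3 counts. Gfra4 and Lingo4 lost their calls without iNKT17 library 2 (adjusted p = 0.0875 and 0.505) and Tuba8 without iNKT17 library 1 (adjusted p = 0.117).

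A few of these genes were shared with iNKT1 rather than iNKT2 cells. Dock5, a guanine nucleotide exchange factor for Rac, had 129.5 and 136 CPM in iNKT17 cells, 0.102 and 0 CPM in iNKT2 cells and 65.9 and 20.5 CPM in iNKT1 cells. Srgap3, a Rac GTPase-activating protein, had 235 and 95 CPM in iNKT17 cells, 0.0677 and 0.0724 CPM in iNKT2 cells and 98.8 and 141 CPM in iNKT1 cells. Here iNKT2 cells alone were near 0. Ifngr1, the ligand-binding chain of the IFN-γ receptor and named after its values were seen, had 564 and 606 CPM in iNKT17 cells, 31.2 and 24.5 CPM in iNKT2 cells and 389 and 556 CPM in iNKT1 cells (4.39 ± 0.32, adjusted p = 0.000236).

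Some called genes were neighbours on the chromosome. Olfr523 and 5830411N06Rik lie 70.22 kb apart on chromosome 7, Il1r1 and Il18r1 lie 149.35 kb apart on chromosome 1, and Gfra4 and Cdc25b 143.35 kb apart on chromosome 2, all higher. On chromosome 9, Rpsa and Ccr8 lie 32.86 kb apart, both lower. The labels describe a stranded kit, but whether counting used the strand is not given. Cdc25b and Rpsa were chosen after their values were seen.

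Lower genes were headed by the co-receptor Cd4. It had 0.0643 and 0.349 CPM in iNKT17 cells, 484 and 519.5 CPM in iNKT2 cells and 45.0 and 52.3 CPM in iNKT1 cells, which is -11.27 ± 0.74 on the log2 scale (adjusted p = 0.000133). The iNKT17 libraries held only 2 and 9 Cd4 counts. Of the 7 genes that usually mark iNKT2 cells (Il4, Il17rb, Cd4, Icos, Zbtb16, Izumo1r and Ccr4), Cd4 alone was called. Izumo1r, folate receptor 4, had 0 and 39.2 CPM in iNKT17 cells and 237 and 283 CPM in iNKT2 cells, and Ccr4, a type 2 homing receptor, had 47.1 and 79.3 CPM in iNKT17 cells and 98.9 and 197 CPM in iNKT2 cells. Neither passed (adjusted p = 0.871 for Izumo1r and 0.702 for Ccr4). The groups were apart for both genes, which 2 libraries a side can also give without a true difference. Icos, a costimulatory receptor, had 1362 and 1431 CPM in iNKT17 cells, 1419 and 1020.1 CPM in iNKT2 cells and 113 and 95.4 CPM in iNKT1 cells (0.20 ± 0.22, and -0.03 without iNKT2 library 2). Il17rb, the IL-25 receptor, had 56.3 and 163 CPM in iNKT17 cells and 137 and 155 CPM in iNKT2 cells and no count in iNKT1 cells (-0.41 ± 0.62, and 0.17 without iNKT17 library 1). For Icos and Il17rb the iNKT17 and iNKT2 libraries overlapped.

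Most lower genes were highest in iNKT1 cells. Of the 34 lower genes, 23 had iNKT1 libraries above all iNKT17 and iNKT2 libraries, 7 had them between the groups, 1 below and 3 overlapping a group. Of the 54 higher genes, 4 had iNKT1 libraries above both groups, 20 between, 12 below and 18 overlapping a group. On a log2 (CPM + 0.1) scale the iNKT1 mean lay nearer to iNKT2 for 30 of the 34 lower and 34 of the 54 higher genes. Genes with the iNKT17 level at the floor, a middle iNKT2 level and a high iNKT1 level thus made up much of the lower set. The iNKT1 libraries took part in the filter and in the spread of the fit, however. Without them 5 of the 34 lower calls were kept, of which Cd4, Fhl2 and Pde3b were highest in iNKT2 cells and AW112010 and Cdh1 in iNKT1 cells. The same positions were not counted over all genes tested, so the order describes only the calls of this fit.

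**Figure D3:**
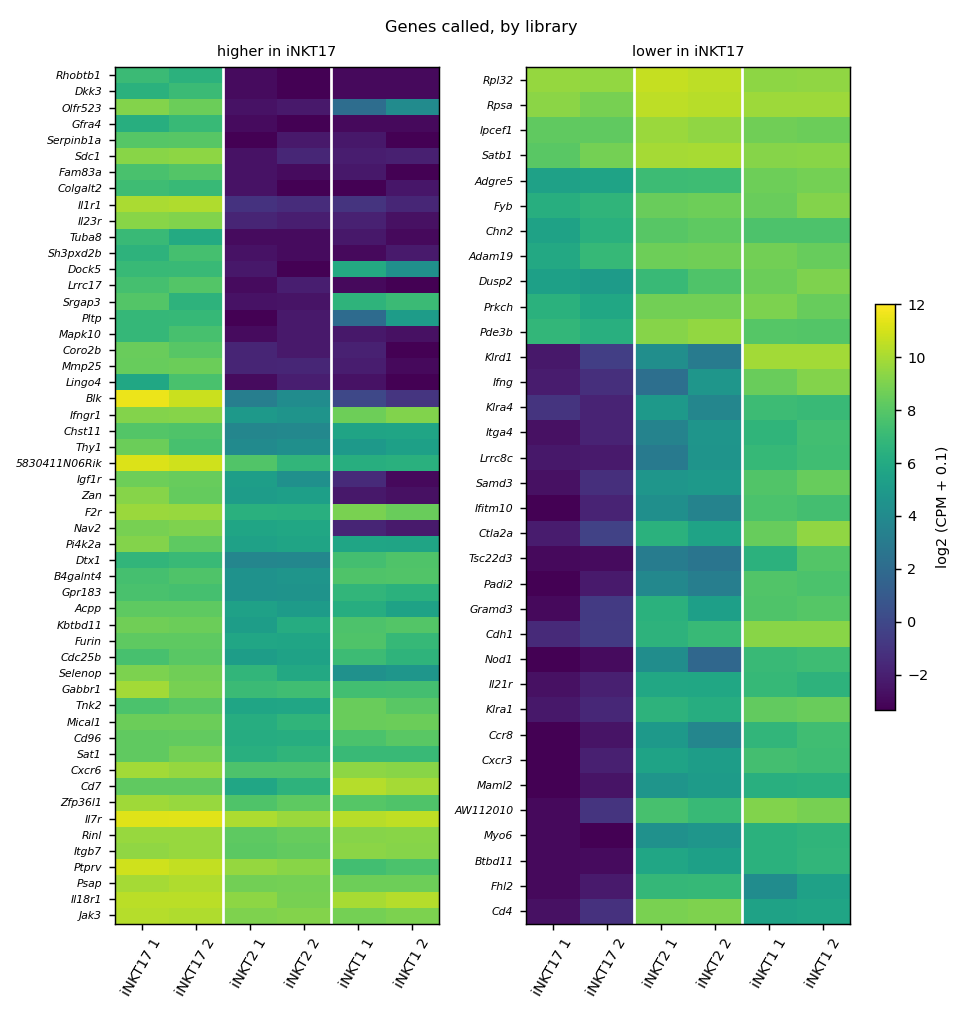
Heat maps of log2 (CPM + 0.1) for the genes called higher (left, 1 of the 54 not shown) and the 34 called lower (right) in iNKT17, 1 column per library with iNKT17 leftmost, then iNKT2 and iNKT1, and genes ordered by fold change. In the right map 23 genes are at the dark floor in both iNKT17 columns, and most of them are brighter in the iNKT1 columns than in the iNKT2 columns.

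Single type 1 and NK genes stood in that order, but the summed levels of their lists did not. The type 1 list had a median log2 fold change of 0.38 over its 19 tested genes, and its 22 genes summed to 2565 and 2716 CPM in iNKT17 cells, 2136 and 2043 CPM in iNKT2 cells and 6385 and 6508 CPM in iNKT1 cells. The NK receptor and adaptor list had a median of -1.27 over its 15 tested genes, yet its 19 genes summed to 652 and 511 CPM in iNKT17 cells, 244 and 197 CPM in iNKT2 cells and 4613 and 4150 CPM in iNKT1 cells. In both lists iNKT1 cells were highest and the sums of iNKT17 cells lay above those of iNKT2 cells. Most of the NK sum in iNKT17 cells came from 1 gene, Klrb1c (505 and 461 CPM, against 0.372 and 8.66 CPM in iNKT2 cells). The order of the NK sums in iNKT17 and iNKT2 cells thus rests on that gene. Ifng, encoding IFN-γ, had 0.129 and 0.310 CPM in iNKT17 cells, 4.74 and 25.9 CPM in iNKT2 cells and 355 and 562 CPM in iNKT1 cells (-6.13 ± 0.96, adjusted p = 0.0394). Its call was lost without either iNKT17 library (adjusted p = 0.348 and 0.586). Klra1, an inhibitory Ly49 receptor, had 0.0965 and 0.233 CPM in iNKT17 cells, 94.0 and 73.2 CPM in iNKT2 cells and 315 and 361 CPM in iNKT1 cells (-8.98 ± 0.61, adjusted p = 0.000140). Klrd1, the CD94 chain of NKG2 receptors, had 0.0965 and 0.620 CPM in iNKT17 cells, 18.7 and 8.22 CPM in iNKT2 cells and 933 and 957 CPM in iNKT1 cells. The call of Klrd1 (-5.26 ± 0.77, adjusted p = 0.0390) was lost when any iNKT2 or iNKT1 library was left out (adjusted p 0.0527 to 0.101), and that of Klra4 without iNKT1 library 1 (adjusted p = 0.0682). Reads of Klra genes can be shared among near-identical family members. The counts were 2 lower and none higher of 15 tested NK receptors and adaptors, 2 lower and none higher of 19 type 1 genes, and none of 10 cytotoxic granule genes, of which 2 had an unadjusted p under 0.05. DESeq2 called 3 higher and 2 lower NK genes, 5 higher and 5 lower type 1 genes and 1 cytotoxic granule gene, which was lower. Among all 13589 genes that DESeq2 tested, 641 were higher and 796 lower, and edgeR called 0.436% higher and 0.275% lower of its 12372. Klrb1c, which encodes NK1.1, ran the other way from Klra1 and Klrd1, with 505 and 461 CPM in iNKT17 cells, 0.372 and 8.66 CPM in iNKT2 cells and 335 and 241 CPM in iNKT1 cells, but did not pass (6.74 ± 1.40, adjusted p = 0.193; 2.36e-05 in DESeq2).

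Homing receptors split between the groups. Of 15 tested chemokine and related receptors, 2 were higher (Cxcr6 and Gpr183) and 2 lower (Cxcr3 and Ccr8). DESeq2 called 3 higher and 3 lower. Of all genes tested edgeR called 0.436% higher and 0.275% lower, to be read beside these receptors and the integrins below. Gpr183, the oxysterol receptor EBI2, had 197 and 177 CPM in iNKT17 cells and 22.7 and 23.1 CPM in iNKT2 cells (3.03 ± 0.46, adjusted p = 0.0210). Cxcr3, the receptor for interferon-induced chemokines, had 0 and 0.155 CPM in iNKT17 cells, 46.9 and 36.1 CPM in iNKT2 cells and 171 and 149 CPM in iNKT1 cells (-9.06, adjusted p = 0.0104). Ccr8, the receptor for CCL1, had 0 and 0.0775 CPM in iNKT17 cells, 30.1 and 12.9 CPM in iNKT2 cells and 109.5 and 156 CPM in iNKT1 cells (-9.04 ± 1.39, adjusted p = 0.0213). Both lower receptors were thus most abundant in iNKT1 cells. With 2 Ccr8 counts in iNKT17 cells, its ratio of summed counts, iNKT2 over iNKT17, was 620.5 (95% counting interval 171 to 5130). Ccr9, which guides cells to the gut and thymus, had no count in the iNKT17 libraries and 38.7 and 38.8 CPM in iNKT2 cells, at least 735-fold lower, yet did not pass (adjusted p = 0.495; 0.000147 in DESeq2). Among 18 integrins and adhesion molecules, Itgb7 was higher, with 701 and 804 CPM in iNKT17 cells and 285 and 315 CPM in iNKT2 cells (1.33 ± 0.22, adjusted p = 0.0307). Its α4 partner Itga4 was lower, with 0.0643 and 0.194 CPM in iNKT17 cells and 11.5 and 25.0 CPM in iNKT2 cells (-7.12 ± 1.08, adjusted p = 0.0199). Itgb7 lost its call without iNKT2 library 1 (adjusted p = 0.0534) and Itga4 without iNKT1 library 2 (adjusted p = 0.175).

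Of the 24 lower genes with an ATAC region at their start, 5 (20.8%) had it called less accessible in iNKT17 cells, against 0.608% of all 8059 genes with such a region. With the replicate number as a block the shares were 37.5% and 2.48%. The 5 genes were Ifng, Itga4, Samd3, Ccr8 and Chn2 (Chn2 was named after its values were seen). Samd3, a gene with a sterile alpha motif, had 0.0643 and 0.310 CPM of RNA in iNKT17 cells, 26.5 and 29.7 CPM in iNKT2 cells and 227 and 343 CPM in iNKT1 cells. The ATAC region over its start held 0.456 and 0.904 CPM in iNKT17 cells, 3.53 and 4.41 CPM in iNKT2 cells and 16.9 and 25.2 CPM in iNKT1 cells (iNKT17 over iNKT2 -2.48 ± 0.39, adjusted p = 0.00638). RNA and accessibility of Samd3 thus stood in the same order over the 3 groups. The region over the Ccr8 start held 3.75 and 3.59 CPM in iNKT17 cells, 8.4 and 11.4 CPM in iNKT2 cells and 15.8 and 16.6 CPM in iNKT1 cells (-1.43 ± 0.26, adjusted p = 0.0118). The windows of these 2 genes are printed as the counterparts of those above, at chr10:26229457-26229756 and chr9:120091883-120092182, both on the plus strand of GRCm38.p6 from RefSeq, with every motif match in capitals.
Samd3: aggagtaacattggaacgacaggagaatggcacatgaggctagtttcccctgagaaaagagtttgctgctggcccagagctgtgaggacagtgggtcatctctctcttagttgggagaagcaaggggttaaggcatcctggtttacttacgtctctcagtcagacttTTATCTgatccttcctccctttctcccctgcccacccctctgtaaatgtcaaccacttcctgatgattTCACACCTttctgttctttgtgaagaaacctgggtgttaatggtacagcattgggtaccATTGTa
Ccr8: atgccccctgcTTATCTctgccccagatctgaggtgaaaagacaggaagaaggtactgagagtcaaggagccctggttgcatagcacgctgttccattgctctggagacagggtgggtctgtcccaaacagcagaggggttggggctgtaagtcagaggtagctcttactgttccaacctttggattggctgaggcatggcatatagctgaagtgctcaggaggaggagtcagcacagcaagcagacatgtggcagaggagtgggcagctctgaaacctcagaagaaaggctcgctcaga
The capitals show each motif as it reads on the opposite strand. The letters AGATAA, recognised by GATA factors, start 83 bases before the Samd3 start and 239 bases before the Ccr8 start. They occurred in 11.2% of all windows, in 7 of 46 windows of lower genes and in 2 of 57 windows of higher genes. The T-box letters AGGTGTGA start 15 bases before the Samd3 start and were found in 1.3% of all windows, in 1 of the 46 windows of lower genes and in none of the 57 of higher genes. Base 45 after the Samd3 start begins a match to ACAAT, the letters of SOX factors, which stood in 31.0% of all windows, in 15 of the 46 and in 14 of the 57. A search for CTTTGA, the letters of TCF and LEF factors, found it in 16.0% of all windows, in 3 of the 46 and in 3 of the 57. No matches overlap in the 4 printed windows, and both strands were searched. A match is only a run of letters and no evidence of binding.

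Cytokine receptors that signal through the common gamma chain changed in different directions. Il7r and Jak3 were higher and Il21r lower among 10 tested members, beside 0.436% higher and 0.275% lower of all genes tested. Jak3, the kinase bound to the common chain, had 1244 and 1158 CPM in iNKT17 cells and 527 and 567 CPM in iNKT2 cells (1.13 ± 0.20, adjusted p = 0.0398), and lost its call without either iNKT2 library (adjusted p = 0.102 and 0.0765). Il21r, the IL-21 receptor, had 0.0643 and 0.155 CPM in iNKT17 cells, 57.3 and 56.1 CPM in iNKT2 cells and 123 and 94.2 CPM in iNKT1 cells (-8.98 ± 1.01, adjusted p = 0.00339). Il2rb, the chain shared by the IL-2 and IL-15 receptors, had 281 and 307 CPM in iNKT17 cells, 157 and 137 CPM in iNKT2 cells and 1689 and 1357 CPM in iNKT1 cells (0.99 ± 0.22, adjusted p = 0.111). None of 15 STAT and SOCS genes was called by edgeR, 4 had an unadjusted p under 0.05, and DESeq2 called 3.

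Costimulatory and T cell receptor signalling genes were mostly not called. The list counts here are to be read beside 0.436% higher and 0.275% lower of all genes tested. Cd96, a receptor for CD155, was the 1 of 17 costimulatory and inhibitory receptors called, with 308 and 314 CPM in iNKT17 cells and 72.9 and 76.2 CPM in iNKT2 cells (2.06 ± 0.32, adjusted p = 0.0223). Cd27 had 8.27 and 0.233 CPM in iNKT17 cells and 221 and 253 CPM in iNKT2 cells (-5.79 ± 1.46, adjusted p = 0.313). Tnfrsf25, the receptor DR3, had 329 and 167 CPM in iNKT17 cells and 28.2 and 10.2 CPM in iNKT2 cells (3.69 ± 0.73, adjusted p = 0.0659). DESeq2 called both Cd27 and Tnfrsf25. Of 25 T cell receptor signalling genes Blk alone was called. Rasgrp1, a Ras activator downstream of the receptor, had 358 and 473 CPM in iNKT17 cells and 82.5 and 102 CPM in iNKT2 cells (2.17 ± 0.43, adjusted p = 0.0673). Dusp2, a phosphatase of MAP kinases induced by activation, had 42.5 and 34.2 CPM in iNKT17 cells and 136 and 217 CPM in iNKT2 cells (-2.20 ± 0.37, adjusted p = 0.0316), the only call among 19 immediate early genes. Satb1, a chromatin organiser of T cells, had 275 and 453 CPM in iNKT17 cells and 990.5 and 1025 CPM in iNKT2 cells (-1.47 ± 0.26, adjusted p = 0.0438). Its call was lost with DESeq2 size factors, the stricter filter and both iNKT1 libraries left out. In the Notch list of 8 genes, the ubiquitin ligase Dtx1 was higher (3.19 ± 0.46, adjusted p = 0.0156) and the coactivator Maml2 lower (-9.48 ± 1.74, adjusted p = 0.0480). Maml2 lost its call without iNKT1 library 1 or 2 (log2 fold change -9.46 and -9.44), and without both. The stricter filter and the replicate block lost it too.

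**Figure D4:**
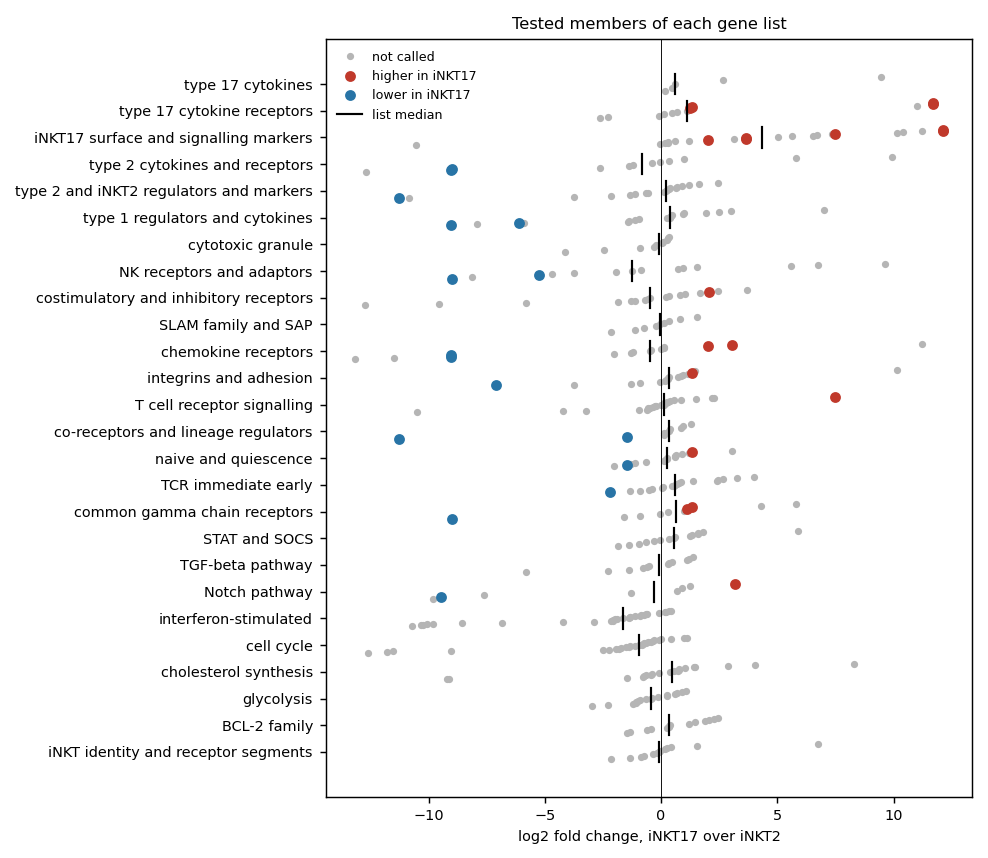
Log2 fold change of iNKT17 over iNKT2 (horizontal) for each tested member of 26 gene lists (rows), with calls in red (higher) or blue (lower), the other members in grey and the list median as a black line. The iNKT17 surface and signalling list has the rightmost median, 4.33, and the interferon-stimulated list the leftmost, -1.62, without a call.

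Several programs held no call by edgeR. Of 29 interferon-stimulated genes none passed and 4 had a positive log2 fold change, with a list median of -1.62. Of all 12372 genes tested, 5736 had a positive log2 fold change, and the median was -0.09. Their summed level was 1174 and 1216 CPM in iNKT17 cells and 2361 and 2535 CPM in iNKT2 cells. An unadjusted p under 0.05 was reached by 6 of the 29, Oas3 (-1.62 ± 0.51) and Zbp1 (-1.34 ± 0.43) included, beside 973 of all 12372. DESeq2 called 6 of the list's genes lower, Oas3 and Zbp1 included. The 27 cell cycle genes had a median of -0.93 and 4 unadjusted p under 0.05, with summed levels of 1380 and 2607 CPM in iNKT17 cells and 2684 and 2752 CPM in iNKT2 cells. Only iNKT17 library 1 was far below the other 3. DESeq2 called 3 cell cycle genes lower, beside 796 lower of all 13589 genes that it tested. Likewise edgeR called no gene among 20 cholesterol synthesis, 17 glycolysis, 14 BCL-2 family, 12 TGF-beta pathway, 9 SLAM family and 13 iNKT identity genes, of which 0, 1, 0, 3, 2 and 2 had an unadjusted p under 0.05. DESeq2 called 1, 1, 0, 2, 2 and 2 of them, among these Slamf6, a SLAM family receptor, with 103 and 56.6 CPM in iNKT17 cells and 396 and 310 CPM in iNKT2 cells (-2.15 ± 0.63, adjusted p = 0.319; 0.00571 in DESeq2). List medians there lay between -0.45 and 0.45.

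Cdh1 had the smallest p of the 34 lower genes, and Fhl2 and Pde3b kept their calls under every alternative tried. Cdh1, which encodes E-cadherin, had 0.257 and 0.543 CPM in iNKT17 cells, 97 and 126 CPM in iNKT2 cells and 616 and 609 CPM in iNKT1 cells (-8.13 ± 0.49, adjusted p = 8.65e-05). Fhl2, a LIM domain cofactor, had 0.0322 and 0.116 CPM in iNKT17 cells, 119.6 and 123 CPM in iNKT2 cells and 17.7 and 43.0 CPM in iNKT1 cells (-10.63 ± 1.26, adjusted p = 0.00485). Pde3b, a phosphodiesterase of cyclic AMP named after its values were seen, had 112 and 79.8 CPM in iNKT17 cells, 589 and 718 CPM in iNKT2 cells and 254 and 235 CPM in iNKT1 cells (-2.77 ± 0.30, adjusted p = 0.00308). Fhl2 and Pde3b were highest in iNKT2 cells, as was Cd4, whereas Cdh1 was highest in iNKT1 cells.

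Further calls outside the lists were looked up after their values were seen. Thy1, a surface glycoprotein of T cells, had 385 and 182 CPM in iNKT17 cells, 15.9 and 19.9 CPM in iNKT2 cells and 29.9 and 41.8 CPM in iNKT1 cells (3.99 ± 0.55, adjusted p = 0.0122). F2r, the thrombin receptor PAR-1, had 837 and 809 CPM in iNKT17 cells, 84.6 and 81.2 CPM in iNKT2 cells and 475 and 366 CPM in iNKT1 cells (3.31 ± 0.26, adjusted p = 0.000381). Nav2, a neuron navigator gene, had 472 and 536 CPM in iNKT17 cells, 51.1 and 55.9 CPM in iNKT2 cells and 0.196 and 0.120 CPM in iNKT1 cells (3.24 ± 0.36, adjusted p = 0.00333). All 3 were read in iNKT2 cells at a clear level. Like every called gene, they did not overlap between iNKT17 and iNKT2 libraries. Cd7, an immunoglobulin family receptor of T and NK cells, had 300.0 and 301 CPM in iNKT17 cells, 54.2 and 96.2 CPM in iNKT2 cells and 1234 and 972 CPM in iNKT1 cells (2.00 ± 0.31, adjusted p = 0.0213). Zfp36l1, an RNA-binding protein that promotes mRNA decay, had 917 and 782 CPM in iNKT17 cells and 221 and 293 CPM in iNKT2 cells (1.72 ± 0.26, adjusted p = 0.0186). On the lower side, Fyb, the adaptor ADAP of T cell adhesion, had 76.7 and 106 CPM in iNKT17 cells and 362 and 394 CPM in iNKT2 cells (-2.05 ± 0.32, adjusted p = 0.0223). Prkch, the protein kinase C eta gene, had 87.4 and 55.0 CPM in iNKT17 cells and 420.4 and 427 CPM in iNKT2 cells (-2.57 ± 0.34, adjusted p = 0.0103). The iNKT1 libraries stood near the iNKT2 level for both, at 368 and 564 CPM for Fyb and 512 and 346 CPM for Prkch. The ribosomal protein genes Rpsa and Rpl32, whose reads can be shared with processed copies, were lower by smaller steps, -1.30 and -1.02 on the log2 scale. Rpl32 lost its call with DESeq2 size factors, the stricter filter, the replicate block and both iNKT1 libraries left out. It also lost it without iNKT2 library 1 (log2 fold change -0.93).

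Across the genome 4549 of 54520 ATAC regions (8.34%) were called between iNKT17 and iNKT2 cells, 2785 (5.11%) higher and 1764 (3.24%) lower. With the replicate number as a block 10102 (18.5%) were called, 5903 higher and 4199 lower, and same-numbered ATAC libraries deviated together from their group means (Pearson's r 0.53 to 0.67 across regions). Counts below are without the block unless it is named. The ATAC libraries were likewise 2 per sublineage. Without iNKT17 library 2 the number called was 1572 and without iNKT2 library 2 it was 1619. Regions were tied to a gene when they lay in its span or within 10 kb. All 54 genes with higher RNA had a region, and 37 of them (68.5%) had at least 1 region higher in iNKT17 cells, against 10.1% of the 10978 genes tested in RNA that had a region. Of the 33 genes with lower RNA and a region, 17 (51.5%) had at least 1 region lower in iNKT17 cells, against 8.64% of those 10978 genes. With the block these shares were 85.2% against 24.6% for higher regions and 66.7% against 18.6% for lower regions. A lower region was seen at 1 gene with higher RNA (1.85%, against 8.64% of all), Dock5, which also had a higher region. A higher region was seen at 5 genes with lower RNA (15.2%, against 10.1% of all). With the block these were 3 genes (5.56%, against 18.6%) and 8 genes (24.2%, against 24.6%). The median log2 fold change of regions was 0.72 at genes with higher RNA (366 regions), -0.35 at genes with lower RNA (285 regions) and 0.04 over all regions.

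Individual genes differed in how many of their regions were called. At Il1r1, 8 of 10 regions were higher in iNKT17 cells, at Blk 8 of 10, at Rhobtb1 9 of 11, at Igf1r 6 of 17, at Il23r 4 of 6 and at Sdc1 2 of 5. In the other direction, 14 of 29 regions at Chn2 were lower in iNKT17 cells, 5 of 18 at Maml2 (where 1 was higher), 4 of 9 at Pde3b and 1 of 2 at Cxcr3. With the block the counts were 9 of 10 at Il1r1, 9 of 10 at Blk, 9 of 17 at Igf1r, 21 of 29 at Chn2 and 8 of 18 at Maml2, where again 1 was higher. Cd4, whose RNA fell most of all called genes, had 5 regions, of which none was called without the block and 1 with it. The region at chr6:124884862-124885514 (mm10), within the Cd4 gene, held 6.74 and 8.92 CPM in iNKT17 cells, 13.6 and 18.3 CPM in iNKT2 cells and 2.24 and 3.08 CPM in iNKT1 cells (-1.02 ± 0.29, adjusted p = 0.0660; with the block -1.02 ± 0.20, adjusted p = 0.00847). Cdh1, Il21r and Klra1 among lower genes and Cxcr6 and Dtx1 among higher genes likewise had regions but no call without the block, with which 2 regions at Cdh1, 1 at Il21r and 1 at Cxcr6 were called. A p that misses the threshold does not show equal accessibility.

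**Figure D5:**
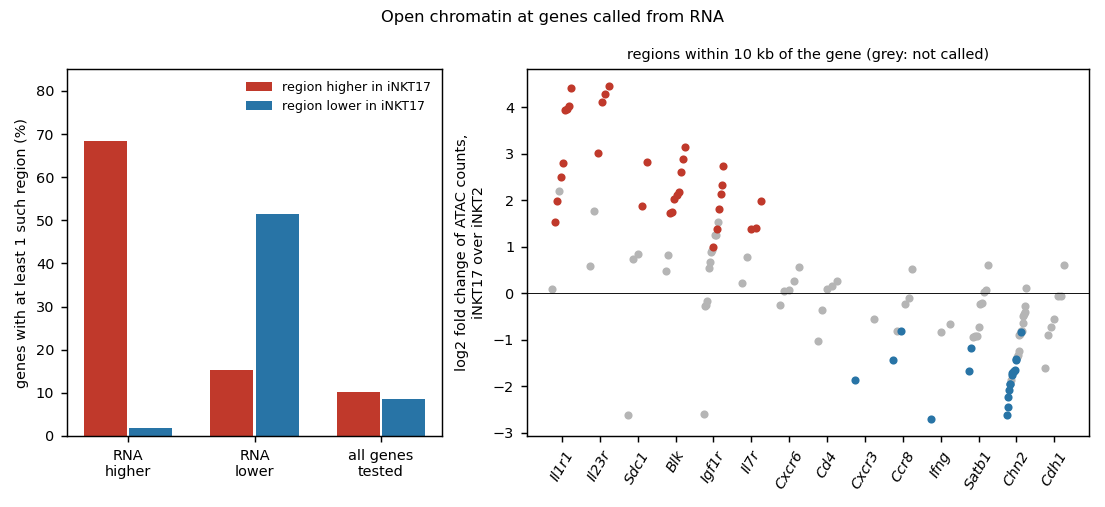
Left, percentage of genes with at least 1 ATAC region higher (red) or lower (blue) in iNKT17 than in iNKT2, for genes with higher RNA (68.5% and 1.85%), with lower RNA (15.2% and 51.5%) and for all genes tested with a region (10.1% and 8.64%). Right, log2 fold change of each region within 10 kb of 14 genes, with called regions coloured: all called regions of Il1r1, Il23r and Blk lie above 0 and all those of Chn2 below 0, while Cd4 has no called region. All calls are without the replicate block.

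Markers of other cells were read beside these results. Rag2, Dntt and Ptcra of immature thymocytes, Foxp3 of regulatory T cells, Pax5 and Cd79a of B cells and Csf1r of myeloid cells, defining genes of those types, had 0 counts in the iNKT17 and iNKT2 libraries. Other genes of the immature thymocyte list were read unevenly. Rag1, Cd8a and Arpp21 had 55, 222 and 52 counts in iNKT2 library 2 and 0 in the other 3. Cd24a had 0 and 1 counts in the iNKT17 libraries and 854 and 0 in the iNKT2 libraries, and Themis had 1 and 0 in the iNKT17 libraries and 1224 and 527 in the iNKT2 libraries. Cd8b1 had 233 and 0 counts in the iNKT17 libraries and 0 and 85 in the iNKT2 libraries. Gamma delta T cell markers summed to 2974 and 2485 CPM in iNKT17 cells and 403 and 247 CPM in iNKT2 cells, and 5830411N06Rik and Cd163l1 held most of it in iNKT17 cells. The gamma delta receptor genes Trdc, Trdv1 and Trdv4 had 0 counts in the iNKT17 libraries, and Trdc had 81 in iNKT2 library 2. Of the NK and innate lymphoid list, summing to 505 and 461 CPM in iNKT17 cells and 0.779 and 14.9 CPM in iNKT2 cells, Klrb1c made up nearly all in iNKT17 cells, where Ncr1, Eomes and Tyrobp had 0 counts. Stromal and epithelial markers summed to 91.2 and 64.6 CPM in iNKT17 cells and 152 and 129 CPM in iNKT2 cells, mostly Pecam1, with Krt5 and Krt8 at 0 counts, and erythroid markers to at most 1.12 CPM. Of the 3 tested stromal and epithelial markers, 2 had a positive log2 fold change. DESeq2 called 1 of them, Epcam, higher in iNKT17 cells, and edgeR called none. B cell markers summed to 31.9 and 137 CPM in iNKT17 cells and 15.2 and 8.01 CPM in iNKT2 cells, mainly Ighm, and myeloid markers to 149 and 96.7 CPM in iNKT17 cells and 151 and 53.9 CPM in iNKT2 cells, mainly Cst3 and Cd68. Ighm, 1 of 2 tested B cell markers, was called higher in iNKT17 cells by DESeq2 and not by edgeR. Regulatory T cell markers summed to 363 and 286 CPM in iNKT17 cells and 401 and 415 CPM in iNKT2 cells, mostly Ikzf2. What these other cells add to any result was not tested.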

How the data were processed

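Counts of RNA reads per gene in 6 libraries and of ATAC reads per region in 6 libraries were analysed as deposited. The authors' table holds raw counts per Ensembl gene, and the submitters' processing notes name STAR 2.5.4, DESeq2 1.22.2, Bowtie2, MACS2 and the builds mm10 and GRCm38; which tool made which table is not given in the sources used here. Gene rows numbered 52636, and gene symbols came from a supplied table (99.56% matched). Genes passing edgeR's filterByExpr (12372) were fitted with edgeR 4.0.16 in R 4.3.3: TMM scaling, robust quasi-likelihood, 3 groups, iNKT17 against iNKT2, Benjamini-Hochberg adjusted p under 0.05. The SE is the absolute log2 fold change over the root of F. The same fit served 54520 ATAC regions. The deposited region table names no genes, so regions were assigned by position to RefSeq spans of GRCm38.p6 (the primary coordinates of mm10) with 10 kb on each side. Genes were named when among the 20 highest or lowest eligible calls, called in a gene list, among up to 3 further list members by p, or fixed by name; the members and lists were chosen with earlier results of these data known. Other samples of the series were not analysed here, and some genes are not reported here. The pipeline was tested on simulated data. Intervals cover counting error only. Total ATAC counts ran from 13299586 to 42964216 per library. Alternatives were DESeq2 1.42.0, its size factors, other filters, 4 libraries only, a replicate block and leaving out each library.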

Additional observations from a re-analysis of the deposited data

How the results depend on the processing

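For RNA, 88 genes (54 higher, 34 lower) became 1437 (641 higher, 796 lower) with DESeq2, 339 (206 and 133) without the low-count filter and 43 (38 and 5) with only the iNKT17 and iNKT2 libraries. DESeq2 size factors gave 90 and moved the median of all genes by 0.05 (log2), a stricter filter gave 79, and the replicate block gave 84. Leaving out 1 library gave 149 to 831 genes, with 97 to 173 higher and 44 to 658 lower. Of the 88 calls, 33 were kept in all 12 alternatives (28 higher, 5 lower) and 78 in at least 10. For ATAC, 4549 regions became 10102 (5903 higher, 4199 lower) with the replicate block, DESeq2 gave 3109 lower regions, and leaving out 1 library gave 1572 to 4985, with 933 to 2915 higher and 452 to 2070 lower; 1572 came without iNKT17 library 2 and 1619 without iNKT2 library 2. DESeq2 changes the test, the scaling and the genes tested (13589 against 12372 in RNA) together, and the cause was not tested. Same-numbered libraries correlated at -0.06 to 0.05 in RNA and 0.53 to 0.67 in ATAC in their deviations. With only 2 numbers a group and no label that says what a number shares, this is a hint from the data, and blocked ATAC counts stand beside the unblocked ones. Fold changes turned sign when 1 library was left out for Zbtb16 (-0.39 to 0.14), Il17rb (-1.37 to 0.17) and Icos (-0.031 to 0.47), none of them called. With 2 libraries a group and a biological coefficient of variation of 1.295, a gene that misses the threshold is not shown to be alike in both.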
